A study of Mus musculus with 72 samples.

Results

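The 10 genes described here encode adhesion and surface proteins of mouse embryonic stem cells and were taken by symbol from the 51826 genes of the count files: the cadherin Cdh1, the adhesion molecule Epcam, the integrin subunits Itga5, Itga6, Itgav, Itgb1 and Itgb5, the tetraspanins Cd9 and Cd81, and the tight junction protein Cldn6. E14TG2a cells, 1 embryonic stem cell line of the mouse kept undifferentiated in 2i and LIF medium on gelatin, were exposed to 4-thiouridine (4sU) and separated by detergents into a cytosolic, a membrane and a nuclear fraction, with whole-cell RNA from the same cultures. 4sU is built into new RNA and is read as T-to-C (T2C) mismatches after alkylation, so that each poly(A)-selected library gives both a read count and a share of new to total mRNA, the T2C count divided by the T count and by the conversion rate of the library. There were 72 libraries from 6 independently passaged replicates, 18 from each fraction and 18 from whole cells.

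Labeling lasted 15, 20 or 30 min in replicates 1 and 2. In replicates 3 and 4 it lasted 20, 40, 60 or 120 min, and in replicates 5 and 6 it lasted 60 or 120 min. Setting aside the 8 libraries of replicates 3 and 4 at 120 min left 16 libraries per fraction. Their conversion rate was 8.83 to 12.2%, against 3.26 to 3.96% in replicates 5 and 6 at the same time, although the labels give both pairs the same dose. All cells were unmodified and all received 4sU; libraries of unlabeled cells were not used here. The labels give 500 µM 4sU up to 40 min and 100 µM at 60 and 120 min, whereas the methods used both doses at 60 min. The conversion rate, the fraction of T read as C in new RNA, at 60 min was 5.83 to 8.29% in replicates 3 and 4 and 2.38 to 3.99% in replicates 5 and 6, so dose and replicate pair cannot be told apart at 60 min, and values at that time are given by pair.

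The gene counts of a library summed to between 13185351 and 52975732. All 10 embryonic stem cell markers examined, among them Pou5f1, Sox2 and Nanog, were expressed, with a summed level of 8277 to 13711 TPM (transcripts per 1000000) per replicate in whole cells, against 12.9 to 20.6 for 14 markers of other cells, none of which was at 0 in every replicate. Of these 14, 5 also reached the mean of 1.5 TPM taken as expressed: Eomes, Gata4, Pax6, Sox1 and Thy1. The highest of the 14 means was 5.32 (Thy1), beside 128 to 5729 for the stem cell markers. In whole cells of replicate 6 the library labelled 60 min had the higher exon share than the library labelled 120 min for 96.9% of 13822 genes and for all 10 genes described here, against 6.98% and 0 in replicate 5. The labels were kept, and shares in whole cells are given with and without replicate 6. In the nuclear and membrane libraries of replicate 6 all 10 genes had the higher share at 120 min, and in the cytosol all except Cldn6 and Itgb5.

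Proteins of the cell surface are made on ribosomes at the endoplasmic reticulum. The signal is read as the chain leaves the ribosome: a cleaved signal peptide starts the chains of E-cadherin, Epcam and the integrins, while tetraspanins and claudins begin with a membrane-spanning segment that serves for targeting. E-cadherin (Cdh1) joins neighbouring cells and Epcam is a further adhesion molecule of epithelia and stem cells. Integrins are pairs of an alpha and a beta chain that bind the extracellular matrix: Itga5, Itga6 and Itgav are alpha chains that pair with Itgb1, Itgav pairs with Itgb5 too, and Itga5 with Itgb1 makes the fibronectin receptor, Itga6 with Itgb1 a laminin receptor. Cd9 and Cd81 are tetraspanins that organise integrins and other proteins in the membrane, and Cldn6 is a claudin of early embryonic epithelia.

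The start of the coding sequence is where this targeting signal is written, and the first 40 codons (120 bases) were therefore read for each gene from the GENCODE M21 transcripts of build GRCm38. Codons with T as their middle base encode hydrophobic residues. Capitals mark the first stretch of 12 codons that holds the most of them.
Cdh1: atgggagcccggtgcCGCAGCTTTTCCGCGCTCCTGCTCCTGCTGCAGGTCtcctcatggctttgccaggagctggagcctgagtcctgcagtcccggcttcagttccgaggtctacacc
Epcam: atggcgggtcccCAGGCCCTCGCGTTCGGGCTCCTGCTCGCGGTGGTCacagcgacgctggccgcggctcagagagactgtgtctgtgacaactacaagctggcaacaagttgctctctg
Itga5: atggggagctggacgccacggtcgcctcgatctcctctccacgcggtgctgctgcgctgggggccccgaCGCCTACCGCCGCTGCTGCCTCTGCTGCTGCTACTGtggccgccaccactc
Itga6: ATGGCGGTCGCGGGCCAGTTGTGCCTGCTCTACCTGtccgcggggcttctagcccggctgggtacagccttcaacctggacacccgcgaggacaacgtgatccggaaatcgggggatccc
Itgav: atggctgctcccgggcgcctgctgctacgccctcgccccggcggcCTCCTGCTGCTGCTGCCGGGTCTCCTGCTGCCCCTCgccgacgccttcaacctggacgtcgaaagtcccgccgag
Itgb1: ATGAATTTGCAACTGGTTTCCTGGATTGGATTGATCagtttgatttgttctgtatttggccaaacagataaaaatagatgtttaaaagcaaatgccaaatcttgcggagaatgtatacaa
Itgb5: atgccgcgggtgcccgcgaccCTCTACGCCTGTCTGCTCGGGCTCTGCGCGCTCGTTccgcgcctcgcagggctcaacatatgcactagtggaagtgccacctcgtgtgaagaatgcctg
Cd9: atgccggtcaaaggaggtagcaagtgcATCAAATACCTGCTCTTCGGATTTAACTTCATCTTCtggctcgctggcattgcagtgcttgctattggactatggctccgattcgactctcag
Cd81: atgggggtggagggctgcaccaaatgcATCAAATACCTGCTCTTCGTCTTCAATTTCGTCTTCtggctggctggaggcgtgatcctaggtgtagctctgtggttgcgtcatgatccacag
Cldn6: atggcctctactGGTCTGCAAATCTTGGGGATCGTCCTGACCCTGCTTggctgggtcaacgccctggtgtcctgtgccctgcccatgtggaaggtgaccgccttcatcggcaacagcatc

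The marked stretches held 6 to 9 codons with a middle T, with a median of 7.5, against a median of 5 over 21311 genes and of 5 over 30 cytosolic partners of adhesion receptors. A stretch with at least 6 such codons was found in 48.7% of all genes and in 10 of the 30 partners, and one with at least 8, as in Itga5, Itgav, Cd9, Cd81 and Cldn6, in 20.6% of all genes. Cd9 and Cd81 share a run of 22 bases, tgcatcaaatacctgctcttcg, from codon 9 to codon 16, and 80 of the 120 bases are identical in place. These are counts of letters and not a prediction of a signal. In Cdh1, Epcam, Itgb1, Itgb5, Cd9 and Cd81 the bases come from 2 exons, in the other genes from 1.

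The 10 genes lie on 7 chromosomes. On the plus strand are Cdh1 (chr8:106603351-106670246), Itgb1 (chr8:128685654-128733200), Epcam (chr17:87635979-87651129), Cldn6 (chr17:23679249-23682446), Itga6 (chr2:71745616-71858416), Itgav (chr2:83724397-83806916), Itgb5 (chr16:33829665-33949338) and Cd81 (chr7:143052739-143067934), and on the minus strand Itga5 (chr15:103344286-103366763) and Cd9 (chr6:125460266-125494791). They range from 3.20 kb (Cldn6) to 119.7 kb (Itgb5) in genomic span, with 1.72 kb (Cldn6) to 10.7 kb (Itgav) of exons.

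The first question was where these mRNAs are found. In such bulk samples, fewer cells with an mRNA and less of it per cell cannot be told apart. Counts were summed per replicate and fraction, and levels were set between genes as TPM, counts divided by exon length and scaled to the same sum in every library. Levels are thus relative within a fraction. The paper estimated that the fractions hold unlike parts of the mRNA of a cell, and no such weight was used here. Ratios between fractions are therefore not ratios of amount. Cdh1 stood in the nucleus at 138 TPM in the lowest, 190 in the median and 299 in the highest replicate, in the cytosol at 14.6, 29.7 and 58.8, in the membrane at 257, 423 and 837, and in whole cells at 203, 285 and 766. All 6 membrane values lay above all 6 cytosolic values, while membrane and nuclear values overlapped. Replicates 1 and 2 were the high ones, with 718 and 837 TPM in the membrane against 257 to 462 in the other 4. Epcam was at 115, 138 and 237 TPM in the membrane and at 6.98, 10.7 and 16.1 in the cytosol, again without overlap. How many of all genes have fractions without overlap was not counted, here or for the genes below.

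Among the alpha chains, Itga5 had 90.2, 129 and 159 TPM in the membrane, 53.5, 97.4 and 138 in the nucleus and 3.58, 11.6 and 20.0 in the cytosol. Its nuclear level came close to its membrane level: the ratio of the mean levels, membrane over nucleus, was 1.31 ± 0.69 (SD of 6 replicate ratios), and in replicates 3 and 4 its TPM was 113 and 138 in the nucleus and 90.2 and 103 in the membrane. This order depends on the scaling: after TMM scaling the same libraries gave log2 ratios of membrane over nucleus of 0.61 and 0.49. Itga6 had 29.1, 51.6 and 94.7 TPM in the membrane and 2.74, 3.76 and 6.42 in the cytosol. Itgav, the lowest of the 3 alpha chains, had 14.7, 19.8 and 35.2 TPM in the membrane and 0.861, 2.04 and 3.43 in the cytosol.

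The beta chains varied less between replicates. Itgb1, the common partner chain, was at 187, 207 and 289 TPM in the membrane, at 61.1, 81.1 and 109 in the nucleus and at 8.79, 14.5 and 17.3 in the cytosol. Itgb5 was at 47.0, 61.6 and 69.8 TPM in the membrane and at 2.50, 5.07 and 6.48 in the cytosol. In both, the 3 fractions did not overlap, with the membrane on top and the cytosol lowest.

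Cd9 was the most abundant of the 10 in the membrane, with 751, 813 and 1042 TPM, against 21.2, 33.2 and 43.5 in the cytosol. Cd81 had 248, 424 and 560 TPM in the membrane and 6.17, 21.4 and 28.3 in the cytosol. Cldn6 was among the least abundant, with 6.59, 25.8 and 56.7 TPM in the membrane and 0.0965, 1.63 and 3.69 in the cytosol. Its level followed the replicate pairs, from 37.9 and 56.7 TPM in the membrane of replicates 1 and 2 to 6.59 and 10.9 in replicates 3 and 4.

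Ordered by mean membrane level, the genes ran Cd9 (854 ± 117 TPM, SD, n = 6), Cdh1 (501 ± 227), Cd81 (413 ± 109), Itgb1 (221 ± 37.8), Epcam (157 ± 48.0), Itga5 (124 ± 24.8), Itgb5 (60.7 ± 7.94), Itga6 (57.2 ± 23.3), Cldn6 (27.3 ± 18.3) and Itgav (21.9 ± 7.55). Of the neighbours in this order, Itga5 and Itgb5 had ranges that did not overlap, and the ranges of all others did. In whole cells the order began in the same way, with Cd9 at 510 ± 125 TPM, Cdh1 at 384 ± 214, Cd81 at 266 ± 79.4 and Itgb1 at 180 ± 48.9.

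**Figure D1:**
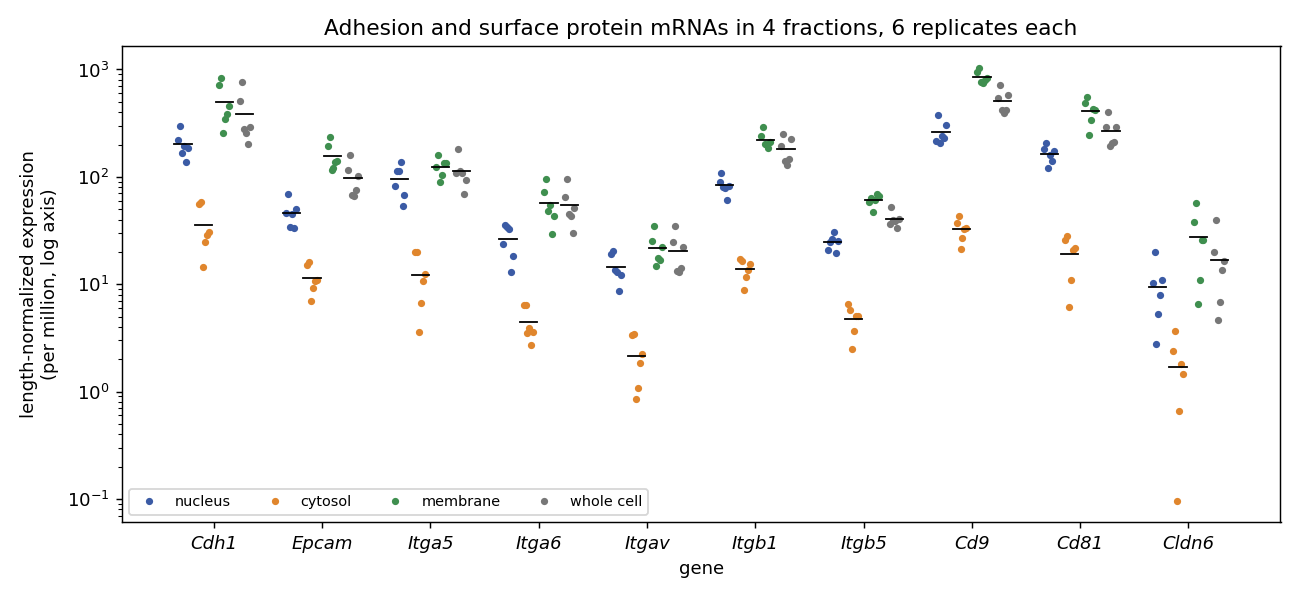
Length-normalized expression (TPM, log axis) of the 10 genes in nuclear, cytosolic, membrane and whole-cell RNA; each point is 1 of 6 replicates, from left to right 1 to 6, and bars mark means. For every gene shown the 6 membrane points lie above the 6 cytosolic points, and how many of all genes do so was not counted. By the edgeR test, a different measure, 19.3% of all genes tested were called higher in the membrane.

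All 10 genes were called higher in the membrane than in the cytosol, where 19.3% of 19040 genes tested were so called (edgeR quasi-likelihood test, Benjamini-Hochberg adjusted p under 0.05 and absolute log2 fold change over 1). The log2 fold change was 5.19 ± 0.26 (SE) for Cd9 (adjusted p = 1.59e-14) and 4.95 ± 0.36 for Cd81 (9.05e-12). It was 4.61 ± 0.70 for Cldn6 (5.22e-06), 4.47 ± 0.23 for Itgb1 (2.48e-14), 4.38 ± 0.41 for Cdh1 (1.17e-09) and 4.29 ± 0.31 for Epcam (7.76e-12). The remaining integrin subunits followed with 4.19 ± 0.31 for Itga6, 4.14 ± 0.21 for Itgb5, 3.87 ± 0.35 for Itgav and 3.86 ± 0.31 for Itga5. The median of the 10 was 4.33 beside -0.14 for all genes, and 44 genes had a higher fold change than Cd9.

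Within replicate pairs the log2 ratio of the 10 genes ran from 3.64 to 5.45 in replicates 1 and 2, from 3.85 to 5.20 in replicates 3 and 4 and from 3.62 to 4.99 in replicates 5 and 6. With library size as the only scaling the median of all genes moved from -0.14 to -0.45. Relative to that median the 10 genes lay 4.00 to 5.32 higher in the main scaling and 3.89 to 5.26 higher with library size only. Over all genes 3678 were called higher and 119 lower in the membrane, or 3299 and 790 with library size only.

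The membrane enrichment, the ratio of mean TPM in the membrane over the cytosol, was 26.2 for Cd9, 21.7 for Cd81, 16.2 for Cldn6, 15.98 for Itgb1, 14.1 for Cdh1, 13.7 for Epcam, 12.9 for Itga6, 12.7 for Itgb5 and 10.2 for both Itgav and Itga5. Between replicates it ranged from 23.96 to 35.8 for Cd9 and from 6.19 to 25.2 for Itga5. Cldn6 in the cytosol rests on few reads, and its ratio reached 68.3 in replicate 3, where the cytosolic level was 0.0965 TPM.

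The genes were also higher in the nucleus than in the cytosol, all 10 of them, beside 24.3% of 19040 genes, with log2 fold changes from 1.53 ± 0.27 (Epcam) to 2.64 ± 0.32 (Cd81) and adjusted p-values of edgeR of 0.00677 (Cldn6) or less. The membrane exceeded the nucleus for all 10, beside 22.1% of 19040 genes, from 1.44 ± 0.29 (Itga5, adjusted p = 1.34e-04) to 2.76 ± 0.28 (Epcam, 1.77e-08). Here the scaling mattered: with library size only, the median of all genes moved from 0.25 to -0.43, the calls over all genes went from 4205 higher and 2381 lower to 1499 and 5259, and Itga5 (0.73) and Itgav (0.88) no longer passed the fold change threshold. In the nucleus over the cytosol the split went from 4635 higher and 2799 lower to 5996 and 1096. In the membrane over the nucleus Itga5 stood at 1.80 and 1.78 within replicates 1 and 2 and replicates 5 and 6 but at 0.55 within replicates 3 and 4.

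Related genes gave a scale for these values. Of 20 further integrin subunits 15 could be tested and 9 were called higher in the membrane, none lower, with a median log2 fold change of 2.35. Itga9 (3.82 ± 0.27), Itga8 (3.81 ± 0.37) and Itga1 (3.62 ± 0.81) led, while Itgae (-0.32 ± 0.26) and Itgam (-0.72 ± 0.35), integrin chains of leukocytes, were not called. Of 15 further cadherins tested 13 were called higher (median 3.40), among them Pcdh1 (4.75 ± 0.43), Cdh3 (4.57 ± 0.41) and Cdh2 (3.97 ± 0.37), which encodes N-cadherin. Cdh24 was called at 1.74 ± 0.34 and Cdh22, at 1.76 ± 0.71, was not. Of 22 further tetraspanins 20 were called higher (median 3.66), with Tspan6 (5.02 ± 0.28), Tspan15 (4.42 ± 0.35) and Tspan1 (4.42 ± 0.32) first and Upk1a (0.73 ± 0.28) and Tspan8 (1.16 ± 0.60) uncalled. Genes under the 1.5 TPM taken as expressed are part of these lists and medians. Whole-cell means were 0.61 TPM for Itga8, 0.65 for Itga1, 0.22 for Itgam, 0.16 for Cdh22 and 0.24 for Tspan8.

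Of 13 further tight junction membrane proteins 12 were called higher (median 3.37), led by F11r (4.62 ± 0.23), Cldn3 (4.51 ± 0.51) and Cldn7 (4.43 ± 0.45), while Jam3 stood at 2.29 ± 0.28 and Cldn15, at 0.99 ± 0.54, was not called. All 19 adhesion receptors of the immunoglobulin type were called higher (median 3.75), from Icam2 (1.06 ± 0.34) and Esam (1.97 ± 0.42) to Bcam (5.03 ± 0.31), Bsg (5.12 ± 0.26) and Igsf8 (5.30 ± 0.39). Cldn15 (0.80 TPM in whole cells) and Icam2 (0.72) were under the level taken as expressed. The 10 secretory pathway reference genes had a median of 4.81 and were all called. Pdia3 (5.58 ± 0.32), Hspa5 (5.24 ± 0.33) and Pdia6 (5.14 ± 0.37) were first and Canx (4.26 ± 0.32) and Sec61a1 (3.93 ± 0.30) last among them.

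The genes of the cytosolic adhesion partners stood apart in value. Of 30 such genes 1 was called higher in the membrane, and the list median was -0.26. The called gene was Vcl (3.12 ± 0.33, adjusted p = 1.14e-08), which encodes vinculin, a link between adhesion sites and actin. Tln2 (0.45 ± 0.17) and Ezr (0.32 ± 0.16) came next, and Fermt2 (-0.58 ± 0.22) and Cgn (-0.63 ± 0.50) were lowest.

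The fractions could be read against reference lists. None of 10 cytosolic reference genes was called in either direction (median -0.39), from Tubb5 (-0.18 ± 0.21), Eno1 (-0.29 ± 0.17) and Ldha (-0.30 ± 0.24) to Gapdh (-0.61 ± 0.18) and Eef2 (-0.66 ± 0.16). All 8 tested mRNAs encoded in mitochondria were called higher in the membrane (median 6.62), with mt-Nd6 (9.56 ± 0.46), mt-Co1 (7.62 ± 0.45) and mt-Cytb (7.06 ± 0.40) first and mt-Nd2 (6.51 ± 0.44) and mt-Nd1 (6.22 ± 0.44) last. Of 5 nuclear RNAs 4 were called higher in the nucleus than in the cytosol and 2, Kcnq1ot1 (2.45 ± 0.31) and Malat1 (1.45 ± 0.32), higher in the membrane than in the cytosol, while Miat (0.09 ± 0.62), Meg3 (-0.24 ± 0.47) and Neat1 (-0.52 ± 0.43) were not. Of the 10 stem cell markers 1, the surface protein gene Tdgf1 (3.22 ± 0.15), was called higher in the membrane; Dppa5a (0.27 ± 0.28), Klf4 (-0.20 ± 0.24), Nanog (-0.53 ± 0.25) and Zfp42 (-0.55 ± 0.16) were not. Of 11 tested markers of other cells 3 were called, Thy1 (4.03 ± 0.60), Pdgfra (3.23 ± 0.37) and Col1a1 (1.45 ± 0.47), but not Sox17 (-0.46 ± 0.35) and Pax6 (-0.47 ± 0.62). Miat (0.69 TPM in whole cells), Pdgfra (0.37), Col1a1 (0.21) and Sox17 (0.11) were under the level taken as expressed.

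**Figure D2:**
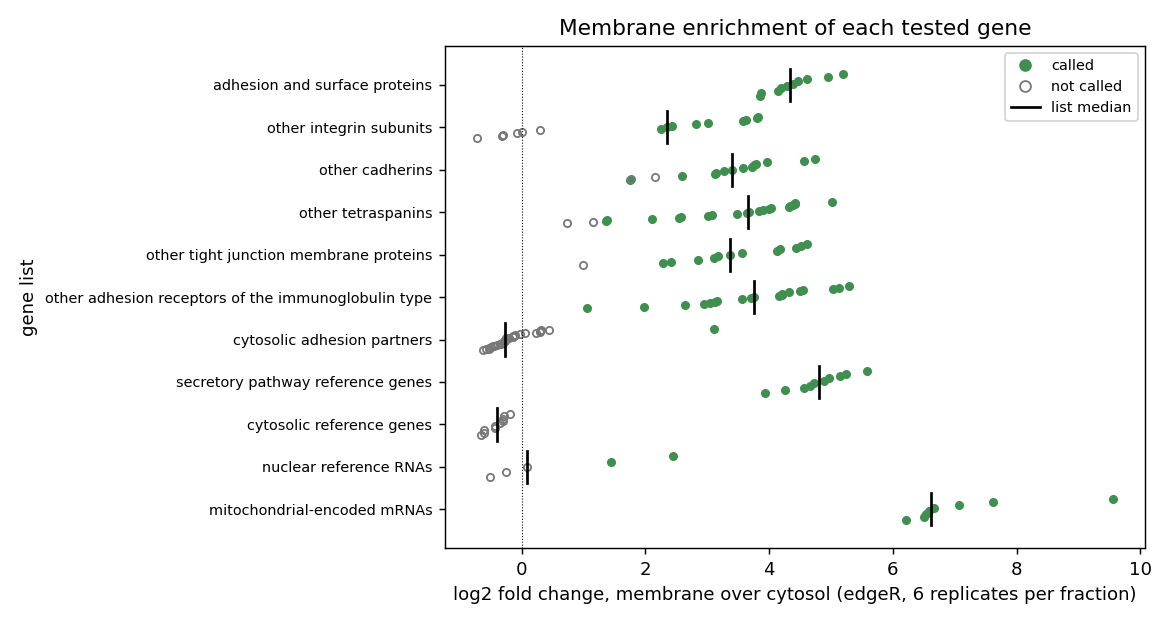
Log2 fold change of the membrane over the cytosol (horizontal axis) for every tested gene of each list (rows); filled points passed the test, open points did not, and bars mark list medians. The 10 adhesion and surface protein genes sit between 3.86 and 5.19, and the cytosolic partners, except Vcl, between -0.63 and 0.45.

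The genes outside the list whose profile over the 24 sums of replicate and fraction was most like the mean profile of the 10 were Fkbp9 (Pearson r = 0.997 on log2 of CPM + 1), Apmap (0.996), Rpn1 (0.996), Pdia4 (0.996) and Dirc2 (0.996). The points share libraries and 4 levels of fraction, and no test was made. Among the 10 themselves r with the mean profile, in which each has a part, ran from 0.917 (Cldn6) to 0.994 (Cd81).

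The second question was how new these mRNAs were in each fraction. In the membrane, exon shares stayed low for the first 30 min: the means of the 10 genes lay between 0.00907 and 0.01801 at 15 min, between 0.00865 and 0.0214 at 20 min and between 0.00666 and 0.0177 at 30 min. They were 0.0300 to 0.0635 at 40 min, 0.0630 to 0.140 at 60 min and 0.166 to 0.433 at 120 min. No unlabeled library was subtracted, and mismatches unrelated to 4sU are part of the shares near 0.01. Different times rest in part on different replicates, so no step between times was tested.

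Itga5 was the most renewed of the 10 at the longest labeling. At 120 min its share in replicates 5 and 6 was 0.616 and 0.562 in the nucleus, 0.854 and 0.768 in the cytosol and 0.465 and 0.401 in the membrane. Its cytosolic share had been 0.00659 to 0.0202 in the 4 libraries of 20 min, where its nuclear share was 0.0328 and 0.0587 in replicates 1 and 2 and 0.156 and 0.135 in replicates 3 and 4. Of the 10 genes it had the lowest mean cytosolic share at 20 min, 0.0137, and the highest at 120 min, 0.811.

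Itgb1 was at the other end in the membrane. At 120 min its shares were 0.170 and 0.161 there, 0.251 and 0.225 in the nucleus and 0.456 and 0.533 in the cytosol, so that the cytosolic values of both replicates exceeded the others. Itgav gave 0.192 and 0.195 in the membrane, 0.386 and 0.358 in the nucleus and 0.578 and 0.630 in the cytosol. Itga6 gave 0.230 and 0.200, 0.345 and 0.301, and 0.480 and 0.584 in the same order, and Itgb5 0.239 and 0.207, 0.332 and 0.256, and 0.400 and 0.378. In all 5 integrin subunits the membrane held the oldest mRNA and the cytosol the newest at 120 min.

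Cd9 had a low share in every fraction at 120 min, with 0.186 and 0.166 in the membrane, 0.234 and 0.203 in the nucleus and 0.240 and 0.353 in the cytosol. Cd81 had 0.296 and 0.263, 0.355 and 0.370, and 0.368 and 0.524. Cdh1 stood at 0.217 and 0.199 in the membrane, 0.270 and 0.241 in the nucleus and 0.360 and 0.370 in the cytosol. For Epcam the values of nucleus (0.235 and 0.275) and cytosol (0.265 and 0.231) overlapped, above 0.179 and 0.161 in the membrane. Cldn6 reached 0.330 and 0.337 in the membrane and 0.396 and 0.533 in the nucleus.

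The pairs differed at 60 min. The mean cytosolic share in replicates 3 and 4 and in replicates 5 and 6 was 0.135 and 0.287 for Cdh1, 0.399 and 0.609 for Itga5, 0.258 and 0.364 for Itgb1, 0.122 and 0.252 for Cd9, and 0.182 and 0.179 for Epcam. In the nucleus replicates 3 and 4 had the higher mean for 8 of the 10 genes, for example 0.446 and 0.368 for Itga5.

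**Figure D3:**
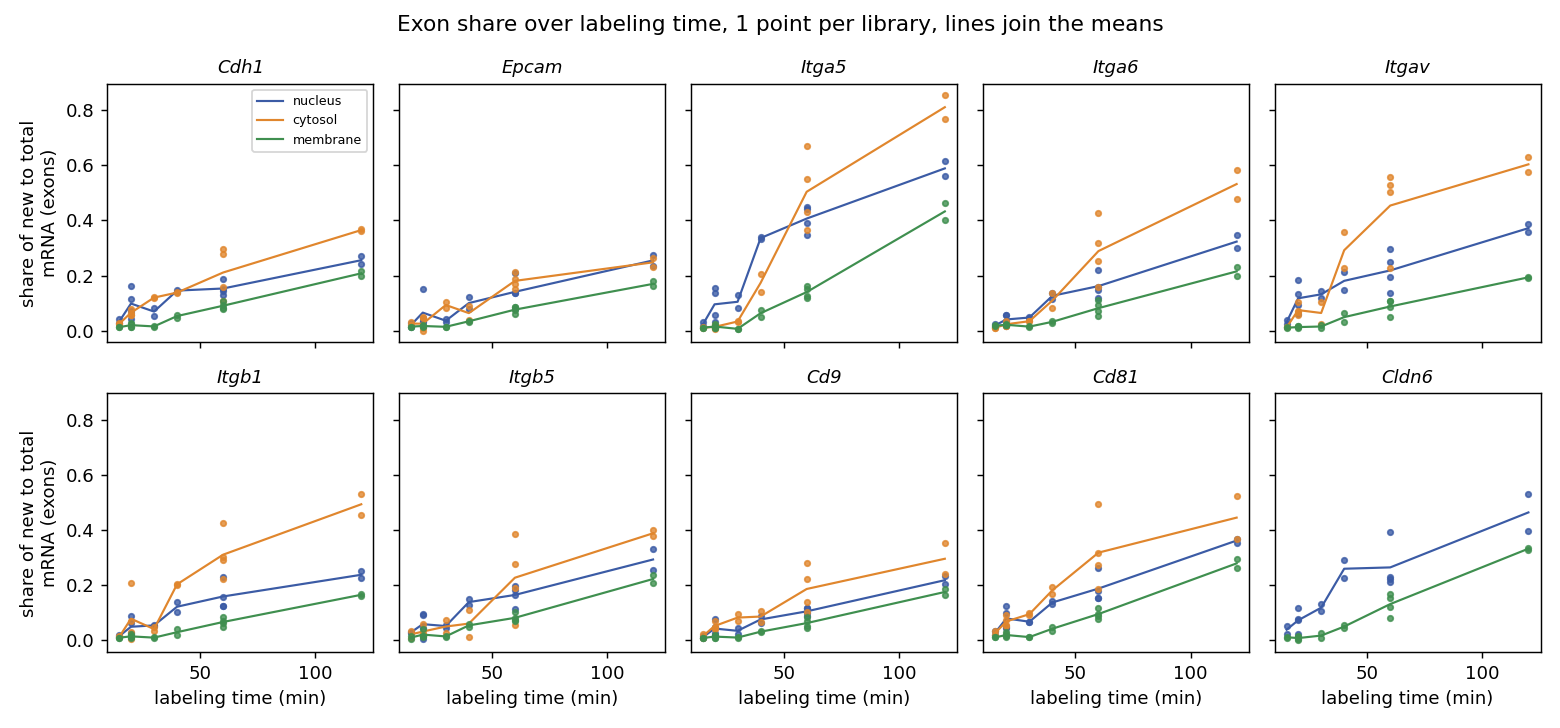
Exon share of new to total mRNA (vertical axis) over labeling time in minutes for the 10 genes in the nucleus, the cytosol and the membrane; each point is a library and lines join the means of a time. Membrane shares stay near 0.01 up to 30 min and end below the nuclear ones, and Itga5 reaches the highest values. Cytosolic shares of Cldn6 are left out for low T counts.

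Within cultures, the exon share was lower in the membrane than in the cytosol for 8 of 9 genes tested, where 7.50% of 11864 genes were called lower (limma on the within-culture differences of log2(share + 0.01), averaged per replicate, n = 6, at least 400 T counts in every library, adjusted p under 0.05). Among the other 1846 tested genes called higher in the membrane than in the cytosol, 44.3% were called lower in share, with a median difference of -0.69 beside -1.21 for the 9 genes and -0.03 for all. No test was made of whether the 9 differed from those genes. Among the lists, the share was called lower in the membrane for 0 of 8 further integrin subunits tested, 3 of 3 cadherins, 6 of 15 tetraspanins, 5 of 7 tight junction proteins, 8 of 12 receptors of the immunoglobulin type and 10 of 10 secretory pathway genes. It was called lower for 1 of 27 cytosolic partners (Vcl, -1.07), 1 of 10 stem cell markers (Tdgf1, -1.10), and 0 of 10 cytosolic reference genes, 8 mitochondrial mRNAs, 4 nuclear RNAs and 4 markers of other cells.

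The largest difference was in Itgav, -1.71 ± 0.23 (SE, log2 scale, adjusted p = 0.00278), with a lower share in the membrane in 16 of 16 cultures. Itgb1 followed with -1.55 ± 0.27 (0.00969, 15 of 16), Cd81 with -1.41 ± 0.11 (5.42e-04, 16 of 16), Cd9 with -1.23 ± 0.11 (7.52e-04, 16 of 16) and Cdh1 with -1.21 ± 0.13 (0.00133, 16 of 16). Itga5 gave -0.92 ± 0.16 (0.00891, 12 of 16). Itga6 (-0.90 ± 0.22, 0.0423, 12 of 16) and Epcam (-0.77 ± 0.16, 0.0232, 14 of 16) passed by less, and Itgb5 did not pass (-0.73 ± 0.19, 0.0574, 14 of 16). The SE and adjusted p are those of limma, which took the 6 replicates as independent. The replicates form pairs with their own labeling times, and no term for the pair was fitted. Where the pairs differ, SE and adjusted p may therefore be too small. Membrane shares in replicates 1 and 2 were near 0.01, the size of the pseudocount, and mismatches unrelated to labeling are part of them. The differences of that pair enter each mean and were not corrected for this.

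Single replicates decided 3 of these calls. Epcam was lost without replicate 1, 2, 5 or 6 (adjusted p = 0.0655, 0.0640, 0.0649 and 0.0694), Itga6 without replicate 3, 4, 5 or 6 (0.106, 0.111, 0.118 and 0.111), and Itgb5 was gained without replicate 3 (0.0360). Within pairs Itga6 stood at -0.13 in replicates 1 and 2, -1.05 in replicates 3 and 4 and -1.51 in replicates 5 and 6, whereas Cd81 stood at -1.48, -1.53 and -1.21. At 15 min the cytosolic share of Itga6 in replicates 1 and 2 was 0.0109 and 0.0096, on 4 T2C counts each. Its membrane share there was 0.0168 and 0.0192, so both fractions were near the pseudocount of 0.01. How far such low shares set the value of -0.13 was not tested. In the 60 min cultures alone 7 of the 9 were called, beside 782 of 12522 genes (6.2%) called lower.

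The cytosolic values rest on small amounts of RNA. Exonic T counts per cytosolic library went down to 1518 for Itgb5, 2363 for Itgav and 3182 for Epcam, against at least 33569 in the membrane for these genes, and Cldn6 had cytosolic libraries with 0 T counts and was not tested. Intronic T counts moved with the fraction: as a percentage of exonic T counts they were 19.8% in the nucleus, 18.2% in the cytosol and 1.32% in the membrane in the median of the 10 genes, and the cytosolic percentage was 0.93 times the nuclear one in the median, from 0.48 for Itga5 to 2.10 for Cldn6. Over 11643 genes with enough counts the median ratio was 0.24, and over 29 cytosolic adhesion partners 0.25. Intron-containing RNA from the nucleus in the cytosolic fraction, and its part in the cytosolic shares of these genes, was not tested.

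Between nucleus and cytosol 0 of 9 genes were called in either direction, with 1 at an unadjusted p under 0.05, while 66.0% of 11865 genes were called higher in the nucleus. Differences of the log2 share ran from -0.52 ± 0.31 (Cd9, adjusted p of limma 0.120) and -0.50 ± 0.31 (Itgb1, 0.135) to 0.60 ± 0.30 (Itga5, 0.0695), beside a median of 0.81 over all genes. Of the other 1839 tested genes called higher in the membrane, 25.0% were called higher in the nucleus, with a median of 0.32. The interval of 2 SE was -1.13 to 0.10 for Cd9 and -0.01 to 1.201 for Itga5, so this test did not tell them from 0. The SE was nearly the same for all 9 genes, 0.297 (Itgav) to 0.309 (Itgb1). In limma the variance of a gene is drawn towards that of genes with a similar share. The interval is thus not the spread of a gene's own replicates, which ran from -0.94 to 0.03 for Cd9.

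The replicate pairs did not move together in this comparison. Itga5 was higher in the nucleus by 1.10 in replicates 1 and 2 and by 1.27 in replicates 3 and 4 on the log2 scale, and lower, at -0.58, in replicates 5 and 6. Its cytosolic share in replicates 1 and 2 was 0.0099 and 0.0128 at 15 min, near the pseudocount of 0.01. All 9 genes were lower in the nucleus in replicates 5 and 6, from -1.15 to -0.34, which were labeled longest. Without replicate 5 or 6 Itga5 was called (0.84 and 0.83, adjusted p = 0.0185 and 0.0158). An alternative fitted single libraries with a term for labeling time and no pairing within cultures. There Itga5 (0.74, adjusted p of limma 0.00435) and Cd9 (-0.48, 0.00917) were called. Libraries of 1 replicate count as independent in that fit, so its adjusted p-values may be too small.

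**Figure D4:**
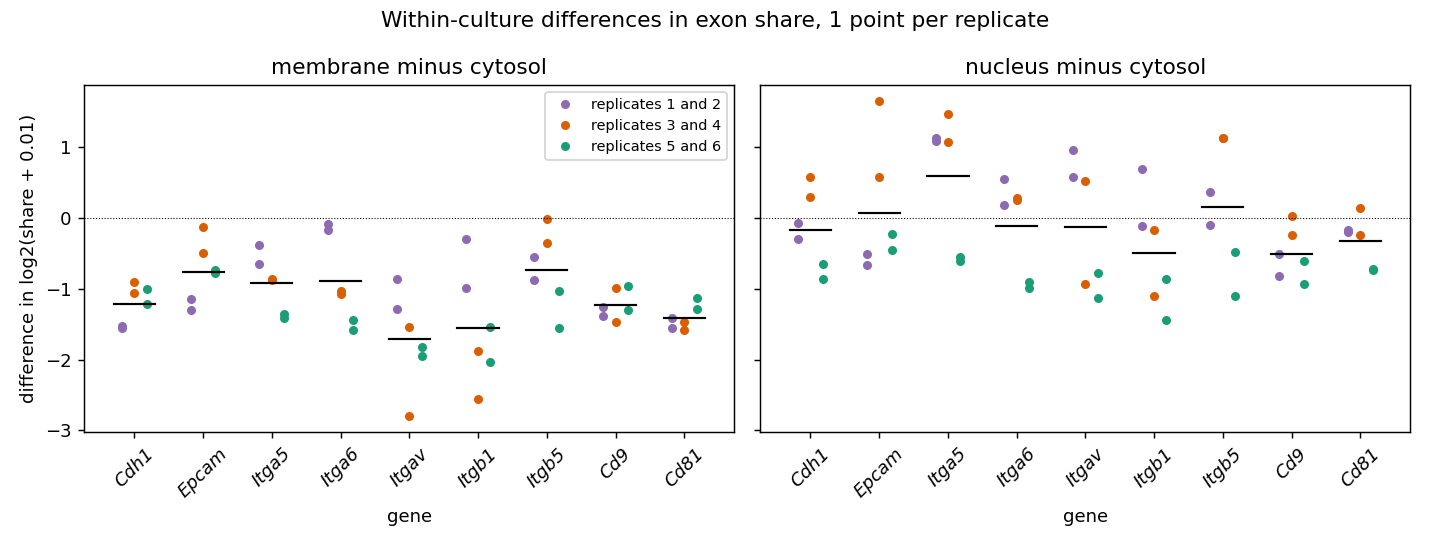
Within-culture difference in log2(share + 0.01) of the membrane minus the cytosol (left) and the nucleus minus the cytosol (right) for the 9 genes with enough T counts; each point is a replicate, coloured by pair, and bars mark means. On the left every point lies below 0, and on the right the points of replicates 5 and 6 lie below 0 for every gene.

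Between membrane and nucleus all 10 genes had the lower share in the membrane, as did 81.4% of 12277 genes. The difference was -1.58 ± 0.22 for Itgav (limma, adjusted p = 2.38e-05), -1.52 ± 0.24 for Itga5 (4.18e-05) and -1.42 ± 0.25 for Cldn6 (9.44e-05), and Cd9 had the smallest, -0.71 ± 0.22 (0.00597). The median of the 10 was -1.05 beside -0.88 for all genes. Within replicates 5 and 6 the 10 genes ran from -0.93 to -0.35 and within replicates 3 and 4 from -2.14 to -1.12.

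Introns are removed soon after they are made, and their share in the nucleus rises fastest. All 9 tested genes had a higher intron than exon share in the nucleus, as did 97.6% of 10380 genes; Cldn6 was not tested, since its intronic T counts in nuclear libraries ranged from 0 to 704 and did not reach the minimum in each. The difference was 3.47 ± 0.23 for Cd9 (limma, adjusted p = 3.12e-07), 2.92 ± 0.20 for Epcam (3.91e-07) and 2.78 ± 0.17 for Itgb1 (1.77e-07), down to 2.02 ± 0.14 for Itgav (3.39e-07) and 1.81 ± 0.22 for Itga5 (1.68e-05), and it was positive in 16 of 16 cultures for each of the 9. The median of the 9 was 2.73 beside 1.79 for all genes.

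At 15 min the intron share in replicates 1 and 2 was 0.402 and 0.294 for Cd9, 0.290 and 0.354 for Cdh1 and 0.199 and 0.157 for Cd81. At 20 min Cd9 stood at 0.657, 0.656, 0.893 and 0.764 in replicates 1 to 4 and Itga6 at 0.299, 0.406, 0.536 and 0.432, without overlap between them. From 60 min on the 9 genes lay between 0.814 and 1.25 in every library, and values above 1 arise because the share is a ratio to an estimated conversion rate. Nuclear exon shares of Cd9, by contrast, were 0.234 and 0.203 at 120 min.

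Exons also differed by position. RNA polymerase that was already inside a gene when labeling began labels only what lies downstream. For Itgb1 the nuclear share at 20 min was 0.0897 in the last exon and 0.0158 in the mean of 8 exons at least 12.7 kb from the 3′ end, and at 120 min 0.238 and 0.256. For Itga6 it was 0.0870 in the nearest measured exon, listed in 2 forms with equal counts up to 1.66 kb from the end, and 0.0150 in 11 exons at least 16.7 kb away at 20 min, and 0.380 and 0.337 at 120 min. For Itgb5, with 4 exons within 2.73 kb and 5 at least 29.1 kb away, it was 0.117 and 0.0377 at 20 min, 0.241 and 0.0490 at 40 min and 0.299 and 0.250 at 120 min. Itga5 went from 0.114 and 0.0368 at 20 min to 0.551 and 0.555 at 120 min. In Itgb5 the farthest exon stood at 0.145 at 20 min, apart from the other far ones. In these 4 genes the near exons had the higher mean at 20 and 40 min. At 120 min the means lay within 0.05 of each other. No test was made, since exons of a gene share libraries.

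**Figure D5:**
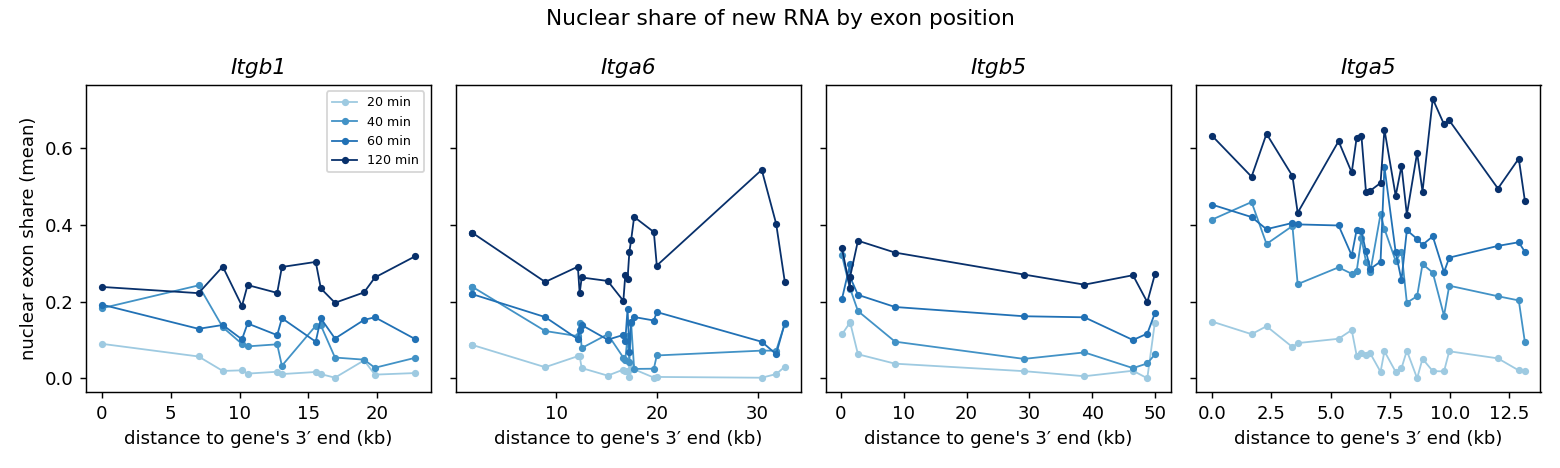
Mean nuclear share of new RNA per exon (vertical axis) against how far the exon lies from the 3′ end, in kb, for Itgb1, Itga6, Itgb5 and Itga5 at 20, 40, 60 and 120 min; each point is an exon with at least 400 T counts in every nuclear library. At 20 min the nearest exons of Itgb1, Itga6 and Itga5 have the highest share of their gene, while in Itgb5 the farthest exon, at 0.145, lies as high as the near ones.

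An apparent half-life summarised each time course, from the curve 1 - exp(-k(t - 5)) with a delay of 5 min, fitted to the 16 libraries of a fraction. It is the time at which the fitted share reaches 0.5, counted from the delay, and for the membrane, where shares first stay near 0.01, the curve describes the data poorly. Where the fitted share is still under 0.5 at the longest labeling, the value is an extrapolation. Each fraction was fitted alone, so time spent by the mRNA in earlier fractions is not taken out, unlike in the stepwise model of the paper. The values are therefore not half-lives within a fraction. In the nucleus it was 81.7 min for Itga5 (77.8 to 87.2 with each replicate left out), 121 min for Cldn6 (110 to 131), 152 min for Itgav (141 to 166), 178 min for Cd81 (175 to 189) and 329 min for Cd9 (317 to 346), with the other 5 between 212 and 259 min. In the cytosol it was 70.5 min for Itga5 (66.3 to 85.3), 79.6 min for Itgav (73.2 to 87.1) and 116 min for Itgb1 (111 to 130), up to 244 min for Epcam (235 to 254). The replicate pairs differed here: replicates 3 and 4 alone gave 95.5 min for Itga5, 78.7 min for Itgav and 307 min for Itgb5 in the cytosol, and replicates 5 and 6 alone 43.3, 67.7 and 135 min. Itga5 was thus above Itgav in the first of these pairs and below it in the second.

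In the membrane the apparent half-life was 198 min for Itga5 (186 to 237), 246 min for Cldn6 (235 to 280), 308 min for Cd81 (292 to 357), 491 min for Cd9 (469 to 566) and 504 min for Itgb1 (480 to 559). The pairs disagreed here as well: replicates 3 and 4 alone gave 319 min for Itga5 and 690 min for Itgb1, and replicates 5 and 6 alone 158 and 445 min. Cldn6 gave 317 min in replicates 3 and 4 and 213 min in replicates 5 and 6, so that it lay beside Itga5 in the first of these pairs and above it in the second. In whole cells the apparent half-life was 152 min for Itga5 with all libraries and 153 min without replicate 6, and 469 and 445 min for Itgb1. All these values of the membrane and of whole cells exceed the longest labeling time and are extrapolations.

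Levels in whole cells were compared between labeling times. All libraries compared had received 4sU, so a change already present at the shorter time cannot show here. In replicates 3 and 4 the labels also give a higher dose at 20 min than at 60 min. Time and labelled dose thus change together in that pair. Whether 4sU changed the levels was therefore not tested, only whether they differed between these times. None of the 10 genes was called between 60 and 20 min in replicates 3 and 4 (edgeR, adjusted p under 0.05 and absolute log2 fold change over 0.5, 0% of 16858 genes called, 747 at an unadjusted p under 0.05, 0 by DESeq2), with log2 fold changes from -0.27 ± 0.24 (Itgav) to 0.10 ± 0.16 (Cd81). None was called between 120 and 60 min in replicates 5 and 6 (0% of 16858 genes, 123 unadjusted, 0 by DESeq2), from -0.27 ± 0.20 (Itgb5) to 0.56 ± 0.30 (Itga6), and none of the 10 reached an unadjusted p under 0.05 in either comparison. Itga6 had 59.4 and 163 CPM (counts per 1000000 reads) at 60 min and 178 and 173 at 120 min in replicates 5 and 6, so that its value rests on 1 library, replicate 5 at 60 min. Without replicate 6 each time has 1 library, whose spread is assumed to be that of the other whole-cell groups. Itga6 then stood at 1.22 ± 0.37 (edgeR, adjusted p = 0.753), and no call or lack of one can be drawn from that fit. The interval of 2 SE was -0.04 to 1.17 for Itga6 and -0.22 to 0.35 for Cdh1.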

How the data were processed

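RNA of E14TG2a cells was fractionated by sequential detergent extraction (digitonin for the cytosol, NP-40 for the membrane, the pellet as nucleus), alkylated and sequenced as stranded poly(A) libraries without molecular identifiers, so repeated reads cannot be told from repeated molecules. The submitters' notes name STAR 2.7.6, HTSeq 0.11.1, RSEM 1.3.3 and the build mm10. The deposited counts are reads per gene as the authors made them, with no normalization, and summary lines naming no gene took 30.4 to 48.8% of each file and were left out. The deposited T and T2C counts per exon and intron and the authors' conversion rate, a fraction, give the share of new RNA. The authors' ratio of new to total RNA was recomputed from these with a largest difference of 1.2e-13.

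Counts of the 16 libraries per fraction were summed per replicate and tested with edgeR 4.0.16 (quasi-likelihood, TMM, filterByExpr) on all genes, in R 4.3.3. Shares were tested as differences of log2(share + 0.01) within cultures, averaged per replicate, with limma 3.58.1 (at least 400 T counts in every library). Replicates were taken as independent in both tests, with no term for the replicate pair. p-values were adjusted by Benjamini-Hochberg over all genes tested. An SE interval is 2 SE on either side. Figures and summaries used Python 3.11.15, numpy 2.4.6, pandas 2.3.3 and scipy 1.17.1. TPM used exon lengths. Depth was 13185351 to 52975732 counts per library, and errors from counting alone are larger in the cytosol, where T counts were lowest. Scripts were tested on simulated data.

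The fractions of 1 replicate and labeling time come from 1 culture, and the cultures of a replicate from 1 passage. Over sums per replicate, all 36 same-number correlations of deviations were over 0.1 (0.170 to 0.676, median 0.516), against a median of -0.174 for 180 others. Of these others 36 were over 0.1 too, and the highest was 0.583. A sum per replicate holds several cultures, so these values do not show that the fractions share 1 culture. The study left out its high-dose samples at long labeling. The 8 libraries of replicates 3 and 4 at 120 min were left out here on the reading that they are such samples, which their dose label does not say. Alternatives for levels were DESeq2 1.42.0, library size only, no filter, the replicate block and separate libraries. For shares they were other pseudocounts and T minimums, 60 min cultures only, and single libraries without pairing within cultures. Each replicate was left out in both.

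The 10 genes are named in every comparison, and of each other list up to 3 genes with the highest and 2 with the lowest membrane against cytosol log2 fold change. The genes and lists were chosen with earlier results of these data known.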

Additional observations from a re-analysis of the deposited data

Results flagged for a closer look

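In whole cells, Itgb5 in replicate 2 stood at 52.7 TPM, apart from the other 5 replicates, of which the nearest was at 40.5. The gap was 0.633 of the range of the 6 replicates, just above the critical value of Dixon's test for 6 samples, 0.625. Of 80 groups of 6 replicates examined this was the 1 found, and chance alone gives about 1 in 20.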

How the results depend on the processing

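The counts of called genes among the 10 in the level comparisons of membrane, nucleus and cytosol were 10 under every alternative run, except 8 and 9 for the membrane over the nucleus with library size only (Itga5 0.73, Itgav 0.88) and with separate libraries (Itga5 0.998). The replicate block changed no call of the 10 genes in the level comparisons. Leaving out each replicate gave 6 to 8 calls of a lower share in the membrane than in the cytosol, beside 4.76 to 6.87% of genes tested. A pseudocount of 0.001 or at least 1 T count gave 6, beside 5.34 and 4.35%. Between nucleus and cytosol, the 0 calls became 1 with a pseudocount of 0.05 (Itgb1, -0.46) and 1 with at least 2000 T counts (Itga5). They became 1 in 60 min cultures only (Itgav, -0.996) and 0 to 1 with a replicate left out. With single libraries fitted without pairing within cultures they became 2. Here Epcam turned to -0.0114 with a pseudocount of 0.05, and Itga5, Itgb5 and Epcam turned to -0.27, -0.20 and -0.39 in 60 min cultures only. With each replicate left out, values in this comparison ran from -0.0401 to 0.41 for Itgb5, -0.25 to 0.21 for Epcam, -0.35 to 0.069 for Itgav and -0.24 to 0.068 for Itga6. In whole cells at 60 against 20 min they ran from -0.14 to 0.025 for Cdh1, -0.16 to 0.31 for Itgb5, -0.25 to 0.0010 for Itgb1, -0.63 to 0.12 for Itgav and -0.51 to 0.019 for Itga6. At 120 against 60 min they ran from -0.0209 to 0.14 for Cdh1, -0.16 to 0.14 for Cd81, -0.11 to 0.000550 for Epcam and -0.10 to 0.077 for Cd9. There Cd81 turned to -0.00187 with DESeq2 and -0.00206 with the replicate block, and Cd9 to 0.012 with no filter. None of the values that turned was called, and the cause was not tested. Over all genes, the 4205 genes called higher in the membrane than in the nucleus became 1499 with library size only, 2486 with separate libraries, 2505 without replicate 1 and 2710 without replicate 2. The 890 genes with a lower share in the membrane than in the cytosol became 565 without replicate 6, the 7906 genes whose share differed between nucleus and cytosol became 3898 in 60 min cultures only, and the 0 in whole cells became 42 and 49 of 31434 with no filter. The 312 half-lives with no delay, in replicates 5 and 6 only or with a replicate left out moved by less than the SD between replicates. That SD reached 675 min beside a half-life of 198 min (Itga5 in the membrane), so staying within it says little about stability. The replicates cover different times, and why the SD is wide was not tested. Replicates 3 and 4 alone moved some by more, such as Cdh1 in the nucleus from 230 to 168 min (SD 52.8) and Cd9 in the cytosol from 211 to 273 min (SD 54.1). Low T counts limit the cytosolic shares, and Cldn6 there most.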
